A study of Mus musculus with 30 samples.

Results

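Among 69316 ATAC-seq peaks of mouse CD4+ T cells, 634 sites (0.915%) gained accessibility with the effector state in conventional cells but not in regulatory T cells (Treg). Accessibility was the deposited normalized read score of a peak, used as log2(score + 1) and averaged over both libraries of a group. A site was a member when effector conventional cells (Teff) were at least 1.5 above naive conventional cells (Tnaive), effector Treg (eTreg) were at most 0.5 above central Treg (cTreg), and Teff were at least 1 above eTreg. The sites were thus chosen by the scores of these 8 libraries, so every value that compares them is a description and carries no test. The same peak table holds 448 sites with the mirror pattern (gained by eTreg only) and 6380 with both steps at 1.5 or more (gained by both).

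Cells came from lymph nodes and spleen, and each group had 2 libraries. Teff were sorted as CD4+hCD2-CCR7loCD62Llo, Tnaive as CD4+hCD2-CCR7hiCD62LhiCD44lo, eTreg as CD4+hCD2+CCR7loCD62Llo and cTreg as CD4+hCD2+CCR7hiCD62LhiCD44lo, where human CD2 (hCD2) reports Foxp3 from a Foxp3-IRES-hCD2 allele. The groups left for tests were all CD4+hCD2- cells (Tconv) and all CD4+hCD2+ Treg (WT Treg) of that genotype, and BATFKO Treg (Foxp3-IRES-hCD2.Batf-/-). Further groups were Foxp3R397W Treg (CD4+hCD2+GFP-, Foxp3R397W-IRES-hCD2/Foxp3-IRES-GFP) and their WT control (the same gate, Foxp3WT-IRES-hCD2/Foxp3-IRES-GFP). All of these were on C57BL6/J. DKO Treg (Foxp3KO-IRES-hCD2.Batf-/-, sorted as CD4+hCD2+ cells that were also CD45.2+, CD45.1-, Thy1.1+ and GFP+) lack both factors in all 4 of their groups, and received retroviruses with Foxp3 and BATF, BATF alone, Foxp3 alone or mock. The labels give ATAC-seq for Tconv, WT Treg and BATFKO Treg, and omniATAC-seq, with another cell lysis, for DKO Treg. The names of the DKO libraries, and of no others, also hold the word vivo. Levels in DKO Treg set against other groups thus also differ in virus, and possibly in protocol and in what that word marks. By its gate Tconv includes cells of the Teff and Tnaive type. No label says that libraries of a group came from separate animals, so a p-value here sets a difference against the spread of the deposited libraries, which may be technical.

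A naive CD4+ T cell that meets its antigen becomes an effector cell, loses lymph node homing receptors and opens enhancers at cytokine, chemokine and homing receptor genes. Treg pass through a similar change from a central to an effector state while the transcription factor Foxp3 keeps many inflammatory cytokine genes silent in them. BATF, an AP-1 family factor, opens chromatin in activated T cells, and AP-1, T-box, RUNX and forkhead factors bind many T cell enhancers.

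Few member sites lay at promoters. Over the RefSeq windows from 250 bases before to 50 after a gene start (GRCm38.p6, the build of the mm10 coordinates), 9 of 634 members (1.42%) overlapped a window, against 13.5% of all peaks. The 250 bases before the start of 3 of these genes are shown because they stand beside a cytokine gene, at a chemokine gene and at a site that differed between the retroviruses. The choice was made after the values were seen. Capitals mark the letters TGANTCA (AP-1), GGTGTGA or TCACACC (T-box), TGTGGTT or AACCACA (RUNX) and TGTTTAC or GTAAACA (forkhead), on either strand; no pair of these overlapped in the sequences shown.
Xcl1, chr1:164935523-164935772, minus strand: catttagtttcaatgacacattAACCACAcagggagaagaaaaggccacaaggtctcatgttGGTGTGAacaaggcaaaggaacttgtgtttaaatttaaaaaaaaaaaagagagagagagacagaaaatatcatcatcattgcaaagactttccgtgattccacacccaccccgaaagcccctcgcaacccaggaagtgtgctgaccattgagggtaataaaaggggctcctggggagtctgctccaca
Ifngas1, chr10:118556526-118556775, minus strand: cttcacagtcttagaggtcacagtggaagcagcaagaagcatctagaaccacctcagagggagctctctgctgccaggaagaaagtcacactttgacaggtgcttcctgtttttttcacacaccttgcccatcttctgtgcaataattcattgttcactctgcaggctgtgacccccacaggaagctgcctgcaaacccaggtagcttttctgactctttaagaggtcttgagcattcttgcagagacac
1810058I24Rik, chr6:35256741-35256990, plus strand: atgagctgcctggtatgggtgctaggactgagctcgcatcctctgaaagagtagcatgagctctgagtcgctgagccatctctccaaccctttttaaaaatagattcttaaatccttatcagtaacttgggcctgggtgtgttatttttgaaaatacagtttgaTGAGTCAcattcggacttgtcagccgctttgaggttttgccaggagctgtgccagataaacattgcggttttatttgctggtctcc
Over the 250 bases before the start in 32851 such windows, the AP-1 letters occur in 6.75% and the T-box letters in 3.33%. The RUNX letters occur in 4.40% and the forkhead letters in 3.17%. The Xcl1 sequence holds RUNX and T-box letters, the 1810058I24Rik sequence holds AP-1 letters, and the Ifngas1 sequence holds none of the 4 motifs. A match describes letters only.

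The peak over the Ifngas1 start (chr10:118556451-118556851) had scores of 72.3 and 80.2 in Teff and 23.0 and 15.5 in Tnaive. Ifngas1 is a long non-coding RNA gene beside Ifng. In the same locus eTreg had 17.7 and 19.9 and cTreg 20.4 and 27.6, so the site was high in Teff and level in the other sorted groups. DKO Treg with mock virus were also high, at 64.3 and 85.0. The peak 161 bp from the Xcl1 body (chr1:164935683-164936083) had 132 and 176 in Teff, 2.55 and 14.3 in Tnaive, 13.3 and 7.02 in eTreg, and 13.3 and 15.4 in cTreg. Xcl1 encodes a chemokine made by natural killer and CD8 T cells. Tconv had 52.2 and 43.2 there, both above the 19.6 and 20.4 of WT Treg, with a log2 difference of 1.21 (SE 0.60) that missed the threshold (limma, adjusted p = 0.17). DKO Treg stayed at or under 12.5 at this site in all 8 libraries.

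Before the results, 1 limit of the names must be given. The study deposited 2 peak tables, of 26 and 22 libraries, and 12 of the 18 libraries that both hold carry another group name in the second. At 4478 peaks with identical coordinates, the matching columns had equal reads at 98.0% to 100% of peaks, against at most 3.35% for the next best column. The libraries named Teff here are named Foxp3KO Treg there, Tnaive are its WT Treg control, eTreg are the WT control of Foxp3R397W Treg, cTreg are Foxp3R397W Treg, Foxp3R397W Treg are eTreg, and their WT control is cTreg. Names here are those of the 26-library table, so "Teff" means the libraries labelled Teff in it. At the highest Foxp3 peak (chrX:7583922-7584322) the libraries labelled Teff had 7.84 and 7.83 and those labelled Tnaive 1.28 and 9.07, against 381 and 363 in eTreg and 435 and 370 in cTreg. Peaks at 5 naive and central T cell genes summed to 11000 to 11500 in Teff and 19600 to 21000 in Tnaive, and to 9060 to 9180 in eTreg and 16200 to 17600 in cTreg. In the second table, 2 libraries named WT Treg had 1.08 and 8.01 at the Foxp3 peak, and the libraries named Teff, which are not shared, had 695 and 733. The ATAC or omniATAC protocol of the 12 libraries differs with the name, so it is not settled. Libraries had 3716499 to 25462278 reads in peaks. A Batf peak (chr12:85686411-85686811) was at 0 in both BATFKO libraries, against 265 and 312 in WT Treg, and at 0 to 12.3 in DKO Treg.

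The members were low sites that reached the height of an ordinary peak only in Teff. Their median score was 43.1 and 53.3 in the Teff libraries, 7.66 and 7.77 in Tnaive, 7.76 and 7.02 in eTreg, and 8.44 and 8.82 in cTreg, against 47.9 and 49.9 for the median of all peaks in the Teff libraries. The other groups had library medians of 6.16 to 11.7, apart from Tconv at 21.2 and 20.4. WT Treg had medians of 9.78 and 10.2, and DKO Treg with mock virus 10.5 and 11.7. Members took 0.408% and 0.519% of the reads in peaks in Teff and 0.0785% and 0.0847% in Tnaive. In bulk samples, fewer cells with an open site and a less open site in each cell cannot be told apart.

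**Figure D1:**
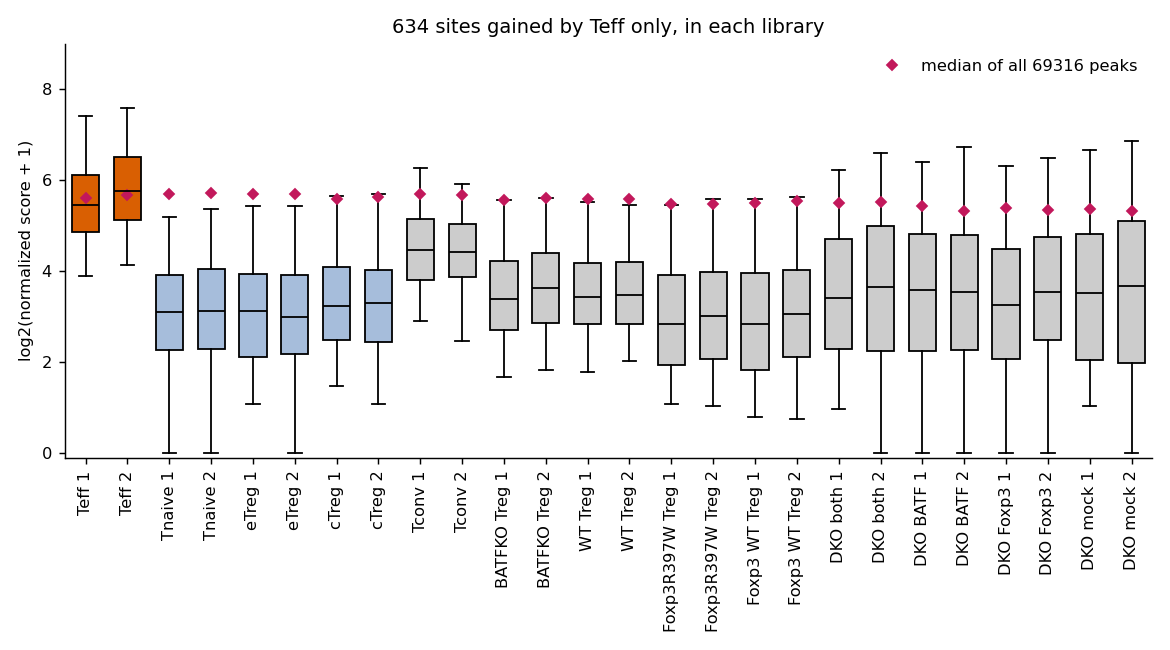
Scores of the 634 sites in each of 26 libraries on a log2(score + 1) axis: boxes span the quartiles with the median as a line, whiskers run from the 5th to the 95th percentile, and diamonds mark the median of all 69316 peaks. Orange is Teff, blue the other groups used to choose the sites, grey the rest, with Foxp3 WT Treg the control of Foxp3R397W Treg. The Teff boxes sit around the diamonds and all others below them, Tconv next highest with medians of 21.2 and 20.4.

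The differences that chose the sites ranged widely. Teff exceeded Tnaive by a median of 2.39 (range 1.5 to 6.25), eTreg differed from cTreg by a median of -0.13 (range -3.36 to 0.50), and Teff exceeded eTreg by a median of 2.43 (range 1 to 5.76). At 431 members eTreg lay within 0.5 of cTreg, at 112 they were 0.5 to 1 lower, and at 91 they were at least 1 lower. So most sites were level between the Treg states, and a minority went down in eTreg. A level site was not always as low as in naive cells. At 138 members cTreg were at least 1 above Tnaive, and at 56 they were at least 1 below. Both Teff libraries were above both Tnaive libraries at 634 members, above both eTreg libraries at 633 and above both cTreg libraries at 618. Teff had the highest group mean of all 13 groups at 505 members, a DKO group at 112 and Tconv at 6.

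**Figure D2:**
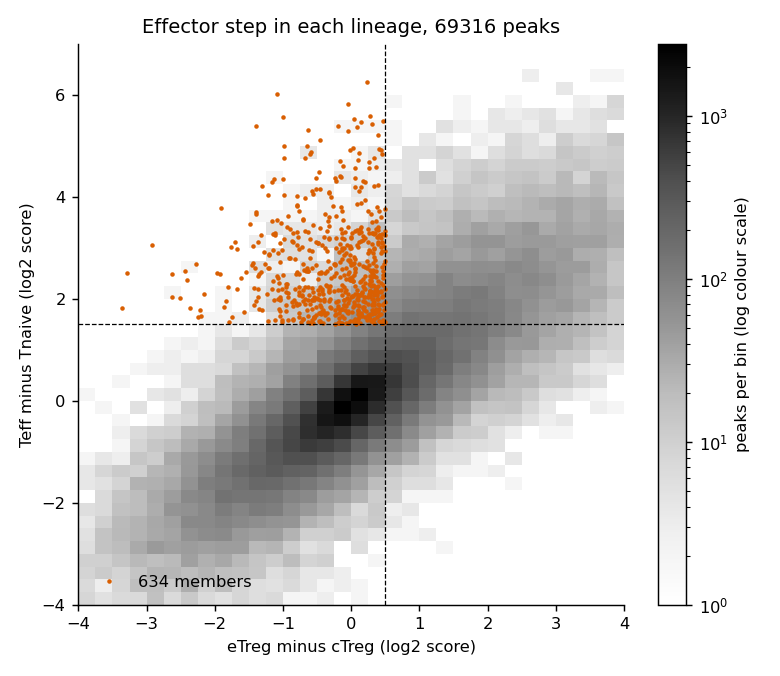
Teff minus Tnaive against eTreg minus cTreg, in mean log2(score + 1): grey bins count all 69316 peaks on a log colour scale, orange points are the 634 members, and dashed lines mark the thresholds of 1.5 and 0.5. Peaks beyond the axes are not drawn. The members fill the upper left block, and 91 lie at -1 or lower on the horizontal axis.

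Sites lay on both sides close to each threshold. Just inside 1.5 on the Teff step was a site at Gatad2a (1.5036), and just outside were sites at Sorl1, Ccl3 and S1pr1 (1.498, 1.4962 and 1.4942). On the Treg step, sites at Slc22a4, Plac8 and Tars were just inside (0.4959, 0.4947 and 0.4938) and sites at Azi2, at chr12:15657874 and at Rbm20 just outside (0.5015, 0.5031 and 0.5047). Between Teff and eTreg, sites at Cdon, Ikzf3 and Ptprb were just inside (1.0007, 1.0063 and 1.0103), and sites at Zfp407, Gfra2 and Map4k4 just outside (0.9989, 0.9977 and 0.9891). Within 0.1 of a threshold there were 45 members against 47 outside on the Teff step, 52 against 63 on the Treg step and 19 against 25 between Teff and eTreg.

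Genes were assigned as the nearest protein-coding body within 100 kb, which gave 572 members at 505 genes. Of 14 gene lists with 238 genes, 28 of their 2287 peaks were members (1.22%, against 0.915% of all peaks), at 22 genes. Type 1 genes held 5 members among 192 peaks, with 27 peaks gained by both lineages. Ifng, the signature type 1 cytokine, had a member 36181 bp from its body with 48.8 and 58.7 in Teff, 12.8 and 13.0 in Tnaive, 9.97 and 7.02 in eTreg, and 6.22 and 13.2 in cTreg. Bhlhe40, a transcription factor of cytokine-producing effector cells, had one with 96.7 and 83.2 in Teff and 10.2 and 0 in Tnaive, against 3.32 and 12.9 in eTreg. Runx3, a factor of type 1 and cytotoxic cells, had 50.5 and 38.2 in Teff and 2.55 and 14.3 in Tnaive, against 4.43 and 8.19 in eTreg and 25.8 and 12.1 in cTreg. All 3 sites were lower in both eTreg libraries than in both Teff libraries, and at Runx3 eTreg were also below both cTreg libraries.

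Type 2 genes held 3 members among 89 peaks and type 17 genes 2 among 164. The site 4211 bp from Il13, a type 2 cytokine gene, had 50.5 and 75.3 in Teff, 1.28 and 0 in Tnaive, 1.11 and 0 in eTreg, and 0.889 and 0 in cTreg. A site near Il5, another type 2 cytokine gene, had 37.4 and 45 in Teff, 5.11 and 0 in Tnaive, and 17.7 and 0 in eTreg, so the eTreg libraries differed. Gata3, the type 2 lineage factor, had a member with 60.1 and 87.1 in Teff, 2.55 and 2.59 in Tnaive, 6.65 and 7.02 in eTreg, and 19.6 and 13.2 in cTreg. The weak site near Csf2, the gene of the cytokine GM-CSF, had 20 and 15.7 in Teff and 0 and 5.18 in Tnaive. Members made up 2.6% of type 1, 3.37% of type 2 and 1.22% of type 17 peaks, against 0.915% of all peaks. These shares rest on 5, 3 and 2 sites.

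Chemokine and homing genes followed. Near Ccl5, a chemokine gene of cytotoxic and memory T cells, Teff had 46.2 and 48.9, Tnaive 0 and 1.30, eTreg 7.76 and 0, and cTreg 3.55 and 6.61. Ccr2, a receptor for inflammatory chemokines, had a member with 51.4 and 56.7 in Teff, 15.3 and 3.89 in Tnaive, and 3.32 and 5.85 in eTreg. Itga1, the alpha chain of a collagen-binding integrin, had one with 39.2 and 53.8 in Teff, 14 and 9.07 in Tnaive, and 9.97 and 4.68 in eTreg. The 4 members of the chemokine receptor and adhesion list lay among 239 peaks, and the others were near S1pr5 and Cx3cr1. The Cx3cr1 site ran differently, with 18.3 and 12.7 in Teff but 26.7 and 36.4 in cTreg.

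Transcription factor genes held 8 members among 596 peaks, 5 of them inside Zbtb16. Zbtb16 encodes PLZF, a factor of innate-like T cells such as NKT cells. Its 5 members lay among 10 peaks between chr9:48711799 and 48807043, and the strongest (chr9:48720015-48720415) had 45.3 and 55.8 in Teff, 0 and 10.4 in Tnaive, 3.32 and 3.51 in eTreg, and 3.55 and 2.2 in cTreg. Zeb2, a zinc finger repressor of terminal effector cells, had 236 and 275 in Teff, 81.7 and 67.4 in Tnaive, 36.6 and 23.4 in eTreg, and 19.6 and 32.0 in cTreg, so Tnaive were already above both Treg states. Irf8 had a member with 118 and 183 in Teff and 34.5 and 36.3 in Tnaive, against 46.5 and 44.5 in eTreg. Fosl2, an AP-1 subunit gene, had 27.9 and 20.5 in Teff and 1.28 and 0 in Tnaive. From the Treg identity list 1 of 165 peaks was a member, near Ikzf2, which encodes Helios. That site had 117 and 109 in Teff, 6.39 and 10.4 in Tnaive, 13.3 and 8.19 in eTreg, and 18.7 and 23.1 in cTreg.

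Icos, a costimulatory receptor, gave the 1 member of the follicular helper list (210 peaks), with 64.4 and 65.5 in Teff, 11.5 and 13.0 in Tnaive, and 9.97 and 12.9 in eTreg. Il2rb, the beta chain of the IL-2 and IL-15 receptors, gave the 1 of the cytokine receptor list (173 peaks), with 74.0 and 89.0 in Teff, 5.11 and 7.77 in Tnaive, 22.2 and 14 in eTreg, and 39.1 and 35.3 in cTreg. Cytotoxic and NK receptor genes held 3 members among 112 peaks (2.68%, against 0.915% of all peaks), at 3 genes, with 23 peaks gained by both lineages. Inhibitory receptor and T cell receptor feedback genes had 0 members among 229 peaks, of which 18 were gained by both lineages. Markers of B cells, myeloid cells, erythroid cells and housekeeping genes also had 0.

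**Figure D3:**
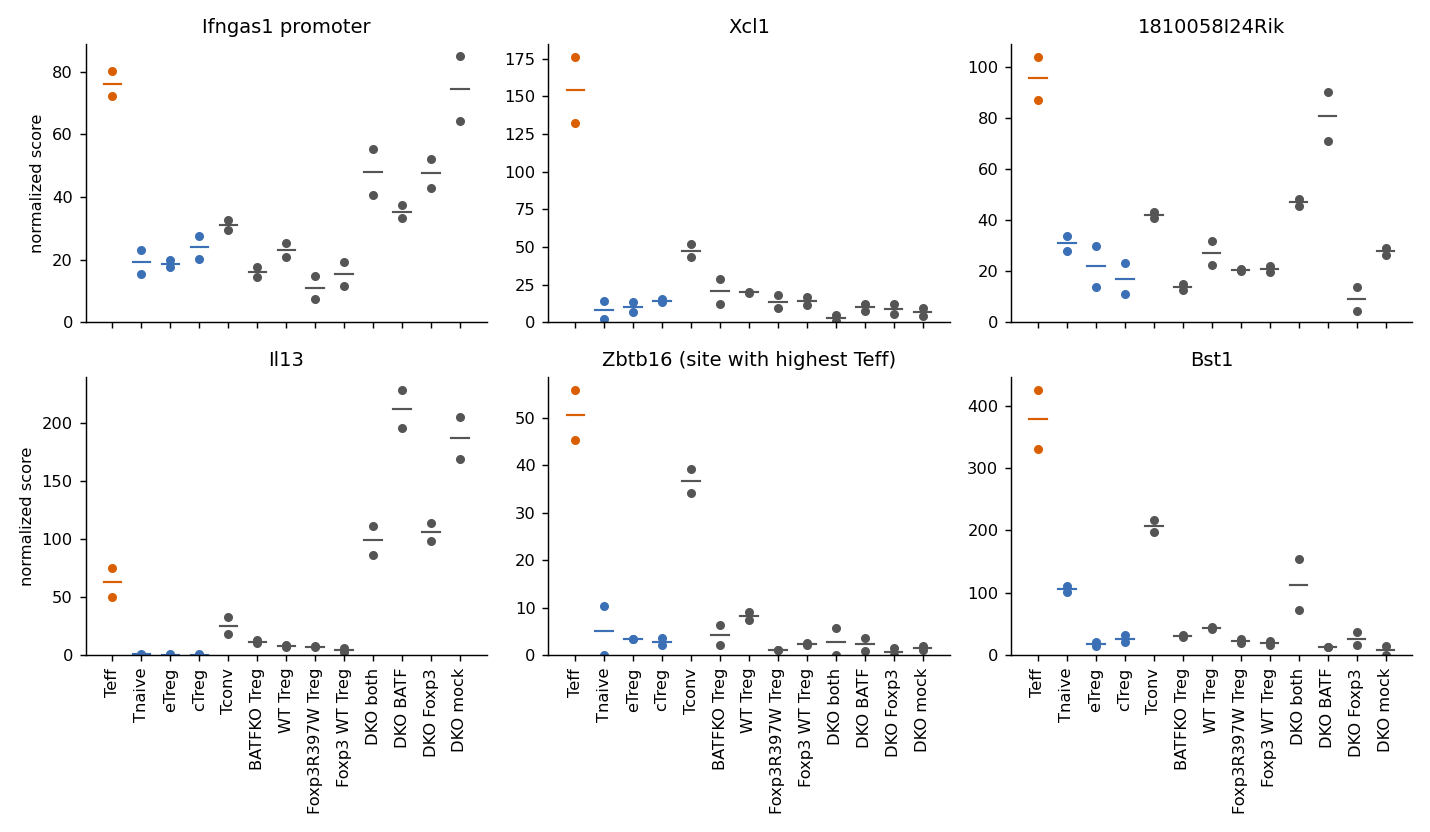
Normalized scores at 6 member sites in 13 groups: points are the 2 libraries, bars their mean, orange Teff, blue the other groups used to choose the sites, grey the rest, with Foxp3 WT Treg the control of Foxp3R397W Treg. Axes are linear and start at 0. Xcl1 and Zbtb16 are high in Teff with Tconv next, while Il13 and Ifngas1 are also high in DKO Treg.

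Among the 10 members with the highest Teff minus Tnaive difference, 1 lay in a listed gene, at Zbtb16 (chr9:48806643), with 47 and 43 in Teff and 0 in both Tnaive libraries. Others were at genes outside the lists. The site inside Asap2, which encodes a regulator of Arf GTPases, had 195 and 240 in Teff, 2.55 and 1.30 in Tnaive, 11.1 and 3.51 in eTreg, and 3.55 and 7.71 in cTreg. Nox3 (47.9 and 85.1), Map3k7 (29.6 and 75.3) and Sulf2 (36.6 and 58.7) had sites with these Teff scores and 0 in both Tnaive libraries. A site near Fcrls had 53.1 and 85.1 in Teff against 0 and 1.30 in Tnaive. Relative to eTreg, the Il13 site given above was among the 10 with the highest Teff minus eTreg difference. The site inside Kcnip3 had 38.3 and 55.8 in Teff against 0 in both eTreg libraries, and the one inside Grhl2 31.4 and 46.0 against 0. The Teff libraries differed most at Map3k7 among these, and a score of a few units stands for a few reads.

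Members clustered at some genes. Plxnc1, a semaphorin receptor gene, had 6 members of its 24 peaks, and 5 members, 1 of them over 100 kb from the gene, lay among the 6 peaks from chr10:94999417 to 95067127. Zbtb16 had 5 members, Prex1, Samd12 and Mapre2 had 4 each, and 456 genes had 1. At Samd12 the 4 peaks between chr15:53622854 and 53675135 were all members. The Plxnc1 sites were uneven in height, from 18.3 and 19.6 to 121 and 143 in Teff. Of all members 53 (8.36%) had another within 10 kb, against 34.6% for the larger set gained by both and 5.36% for the smaller set gained by eTreg only.

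Members were distal. In gene bodies lay 356 (56.2%), against 62.1% of all peaks, and 62 (9.78%) were over 100 kb from a protein-coding body, against 5.96%. Their median distance to a gene start was 23996 bp, against 27635 bp for sites gained by eTreg only, 25038 bp for sites gained by both and 15039 bp for all peaks. In the promoter windows lay 1.42% of members, 1.12% of sites gained by eTreg only and 4.28% of sites gained by both. All 3 effector sets were farther from gene starts than all peaks.

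At antigen receptor loci, looked at after the values were seen, the T cell receptor gamma locus (chr13:19178042-19342212) held 3 members among 8 peaks. Its strongest member by Teff score (chr13:19219629) had 31.4 and 45 in Teff and 7.66 and 5.18 in Tnaive. The immunoglobulin heavy chain locus held 4 members among 125 peaks and the T cell receptor alpha locus 0 among 110. Genes marking gamma-delta T or NKT cells, with peaks at 3 genes, summed over their peaks that were not members to 827 to 1020 in Teff, 332 to 406 in Tnaive, 645 to 686 in eTreg, 338 to 379 in cTreg, 654 to 681 in Tconv and 515 to 666 in WT Treg. All 5 members at these genes lie in Zbtb16. Its 15 peaks, members included, summed to 781 to 1070 in Teff, 146 to 157 in Tnaive and 132 to 159 in eTreg. Blk, in the same list, had 141 to 144 in Teff and 449 to 470 in eTreg, and Sox13 had 49.9 to 83.6 in Teff and 148 to 172 in Tnaive. No peak was assigned to the defining gene Trdc. Only protein-coding bodies could be assigned, so the lack of a Trdc peak shows nothing. Markers of CD8 T or NK cells summed to 3340 to 3370 in Teff, 5600 to 5940 in Tnaive and 2770 in both eTreg libraries, so Teff lay between the others. Within that list Cd8a had 12.7 to 22.6 in Teff, 86.8 to 111 in Tnaive and 24.4 to 38.6 in eTreg. Prf1, the gene of perforin, had 305 to 414 in Teff, 881 to 996 in Tnaive and 58.7 to 66.7 in eTreg, and Klrd1 55.8 to 56.6, 282 to 419 and 10.5 to 11.1 in the same order. Ncr1, with 20.9 to 30.3 in Teff, 15.5 to 20.4 in Tnaive and 17.7 to 18.7 in eTreg, and Gzmb, with 679 to 696, 635 to 661 and 563 to 565, were higher in Teff than in both. B cell markers summed to 428 to 431 in Teff, 455 to 526 in Tnaive and 551 to 579 in eTreg. Their peaks lay at only 2 of the genes. Pax5 had 249 to 264 in Teff, 25.5 to 44.1 in Tnaive and 317 to 322 in eTreg, while Ebf1 had 167 to 178 in Teff, 429 to 482 in Tnaive and 234 to 257 in eTreg. Myeloid markers summed to 628 to 652 in Teff, 734 to 846 in Tnaive and 536 to 579 in eTreg, and erythroid markers to 177 to 200, 254 to 276 and 179 to 200. Whether cells of these types in the Teff gate have a part in the member sites was not tested.

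Tconv against WT Treg was the test nearest to the rule in libraries that did not choose the sites. Of 634 members, 115 were called higher (18.1%) and 4 lower (0.631%), against 9.92% of all peaks higher and 10.1% lower (limma, Benjamini-Hochberg adjusted p under 0.05 over 69316 peaks). The median log2 difference of members was 0.82, against -0.01 for all peaks, and 549 members (86.6%) were above 0, against 49.6% of all peaks. Both Tconv libraries were above both WT Treg libraries at 405 members (63.9%), against 29.2% of all peaks. Members were at a mean score of 10 or more in either group at 569 sites, and their median SE was 0.587, against 0.338 for all peaks. Sites gained by eTreg only had 0 called higher and 98 lower, with a median of -0.86. Markers of CD8 T or NK cells summed to 4130 to 4400 in Tconv and 2920 to 3080 in WT Treg, and their part in this difference was not tested. The count of called members fell to 55 and 71 without WT Treg library 1 or 2, and to 53 and 75 without Tconv library 1 or 2. Of 35 named sites called here, 13 were called whichever library was left out.

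**Figure D4:**
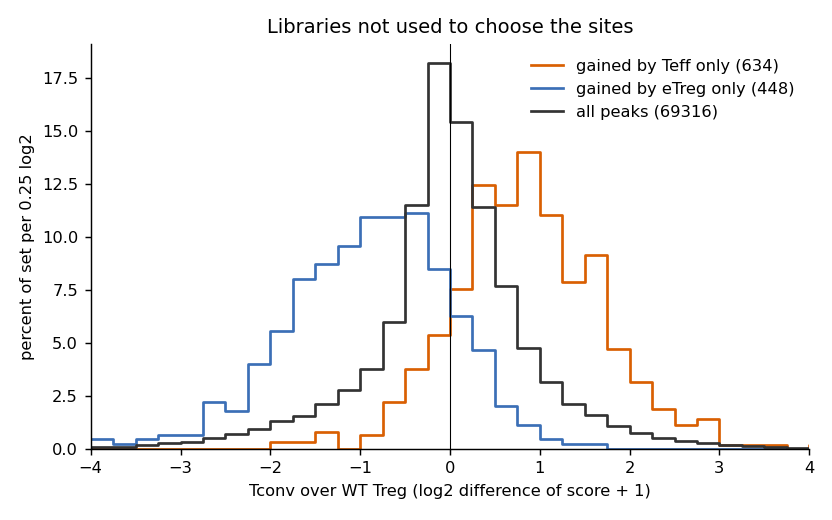
Distribution of the log2 difference Tconv over WT Treg, in log2(score + 1), as percent of each set per 0.25: orange the 634 sites gained by Teff only, blue the 448 gained by eTreg only, black all 69316 peaks. The orange curve lies right of 0 with a median of 0.82, the blue one left with a median of -0.86, and all peaks centre on -0.01.

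Abhd2, a lipid hydrolase gene, had the smallest p, with 98.0 and 81.8 in Tconv and 15.9 and 19.4 in WT Treg (log2 2.29, SE 0.34, adjusted p = 9.6e-06). At a site near Arl8b, which encodes a lysosomal GTPase, Tconv had 80.0 and 47.7 and WT Treg 2.44 and 3.06 (4.07, SE 0.61, 1.3e-05). The other sites among the 5 with the smallest p were at 4932438H23Rik (1.70), Dennd4c (3.33) and Aen (2.98, a nuclease gene). All 5 were called whichever library was left out. Among listed genes 4 members were higher and 0 lower. Zeb2 had 94.7 and 159 in Tconv and 28.1 and 52.1 in WT Treg (1.66, SE 0.36, adjusted p = 0.0011, lost without WT Treg library 1). Il13 had 32.7 and 18.2 in Tconv and 7.33 and 9.19 in WT Treg (1.46, SE 0.48, adjusted p = 0.028, kept only without Tconv library 2). Itga1 (2.63, adjusted p = 0.021) and Fosl2 (2.79, adjusted p = 0.021) were also higher. The Itga1 call was lost without any 1 of the 4 libraries, and the Fosl2 call without WT Treg library 1 or Tconv library 2. Ifng was at 29.4 and 20.4 in Tconv and 14.7 and 12.2 in WT Treg, both higher without passing (0.83, SE 0.45, adjusted p = 0.22). At the strongest Zbtb16 site Tconv had 39.2 and 34.1 and WT Treg 7.33 and 9.19 (2.03, SE 0.87, adjusted p = 0.10).

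The 4 members lower in Tconv lay near Rap1b, Agpat5, Gimap3 and Stard3nl. The Stard3nl site (chr13:19300469) is inside the T cell receptor gamma locus. Near Rap1b, the gene of a small GTPase in integrin activation, Tconv had 13.1 and 9.09 and WT Treg 45.2 and 35.7 (-1.79, SE 0.39, adjusted p = 0.0012). Teff had 75.8 and 57.7 and Tnaive 6.39 and 29.8 at this site, while eTreg had 38.8 and 26.9 and cTreg 41.8 and 46.3. At the other 3 sites both Treg states were above Tnaive in both libraries, and the Teff mean was the highest of these 4 groups. The Gimap3 call was lost without WT Treg library 1 or Tconv library 2, and the Stard3nl call was kept only without WT Treg library 2.

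BATFKO Treg against WT Treg gave 1 call at the members. This comparison shares the WT Treg libraries with Tconv against WT Treg. Of 634 members 1 was higher and 0 lower, against 0.062% of all peaks higher and 1.43% lower, with a median log2 difference of -0.02. The split was 16 higher and 1 lower with quantile scaling and 3 higher and 1 lower with edgeR on the whole reads. Sites gained by both lineages had 5 higher and 708 lower of 6380 in the same comparison, and sites gained by eTreg only had 0 and 7 of 448. At an unadjusted p under 0.05 there were 45 members (7.1%), against 8.41% of all peaks. The 1 call was inside Mtor, which encodes a growth-control kinase, with 29.9 and 13.9 in BATFKO Treg and 3.67 and 3.06 in WT Treg (2.30, SE 0.55, adjusted p = 0.023). It was lost without WT Treg library 1, WT Treg library 2 or BATFKO library 1. Members had a mean of 10 or more in either group at 387 sites.

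Foxp3R397W Treg against their WT control gave 1 member higher and 1 lower, against 0.776% and 1.85% of all peaks. The split was 4 higher and 0 lower with quantile scaling and 7 higher and 5 lower with edgeR. The median log2 difference was -0.05, and 37 members (5.84%) had an unadjusted p under 0.05, against 13.4% of all peaks. Inside Ust, a sulfotransferase gene, Foxp3R397W Treg had 5.06 and 8.83 and the control 0.724 and 1.34 (1.94, SE 0.51, adjusted p = 0.035). Near Ppp1r12a, a myosin phosphatase subunit gene, Foxp3R397W Treg had 3.4 and 4.94 and the control 13.4 and 16.0 (-1.62, SE 0.42, adjusted p = 0.032). With any 1 of the 4 libraries left out, 0 members were called. Members had a mean of 10 or more in either group at only 254 sites.

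In DKO Treg the members moved in both directions, as did all peaks. With both viruses against mock, 46 members were higher and 76 lower, against 12.9% of all peaks higher and 10.5% lower; members had shares of 7.26% and 12.0%. With quantile scaling the split was 23 higher and 87 lower. The median log2 difference of members was -0.03, against -0.04 for all peaks. Sites gained by eTreg only had 276 higher and 3 lower of 448, with a median of 2.07, and sites gained by both had 3183 higher and 90 lower of 6380. Without mock library 2 the member count was 58, and the range over the 4 libraries was 58 to 94. Of 36 named calls, 20 were kept whichever library was left out.

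Among the higher sites the smallest p was at Bst1, the gene of the surface enzyme CD157, with 71.8 and 154 with both viruses, 13.6 and 12.5 with BATF, 16.1 and 36.8 with Foxp3 and 1.05 and 14.7 with mock. Both viruses over mock was 4.23 (SE 0.55, adjusted p = 2.1e-06), and the mock libraries differed from each other. At Fyb, the gene of the adaptor ADAP, there were 56.3 and 66.8 with both viruses, 28.5 and 33.6 with BATF, 11.8 and 9.21 with Foxp3, and 9.49 and 2.93 with mock (both over mock 3.28, SE 0.49, adjusted p = 6.5e-06). Bcas3 (2.60), Tec (3.29, a T cell kinase gene) and Tcl1b2 (4.79) were also higher. Near Icos there were 14.6 and 13.8 with both viruses and 9.90 and 13.4 with BATF, against 0 and 3.91 with mock (both over mock 2.78, SE 0.58, adjusted p = 0.00051). Near Gata3 there were 29.1 and 23.0 with both viruses, 6.19 and 6.72 with BATF, 28.0 and 20 with Foxp3, and 12.7 and 4.89 with mock. Both over mock there was 1.59 (SE 0.47, adjusted p = 0.012, lost without mock library 2 or both-virus library 1) and both over BATF 1.85 (SE 0.47, adjusted p = 0.0066, lost without both-virus library 1).

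The lower sites included Zeb2, with 17.5 and 15 with both viruses, 68.0 and 51.8 with BATF, 34.4 and 56.8 with Foxp3, and 110 and 73.3 with mock. Both viruses over mock was -2.40 (SE 0.36, adjusted p = 7.3e-06) and both over BATF -1.81 (SE 0.36, adjusted p = 0.00074), each kept whichever library was left out. Near Fcrls there were 6.80 and 13.8 with both viruses and 73.8 and 97.8 with mock (-3.00, SE 0.57, adjusted p = 0.0002). Mcm10 (-3.74), Ptpn12 (-2.97, a tyrosine phosphatase gene), Mgll (-2.73), Ago2 (-1.55) and sites at chr9:80819057 (-4.27) and chr14:25161934 (-2.28) were lower too. Runx3 (-1.36, adjusted p = 0.028) and Il2rb (-0.92, adjusted p = 0.017) were also lower. The Runx3 call was lost without any 1 of the 4, and the Il2rb call was kept only without both-virus library 2. The Il13 site was high in all DKO groups, at 86.4 and 111 with both viruses, 195 and 228 with BATF, 114 and 98.2 with Foxp3, and 169 and 205 with mock, and it passed in no comparison among them. All 8 DKO libraries were above the 50.5 and 75.3 of Teff at this site. The 2 kinds of library also differ in virus, and possibly in protocol and in what the word vivo marks.

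**Figure D5:**
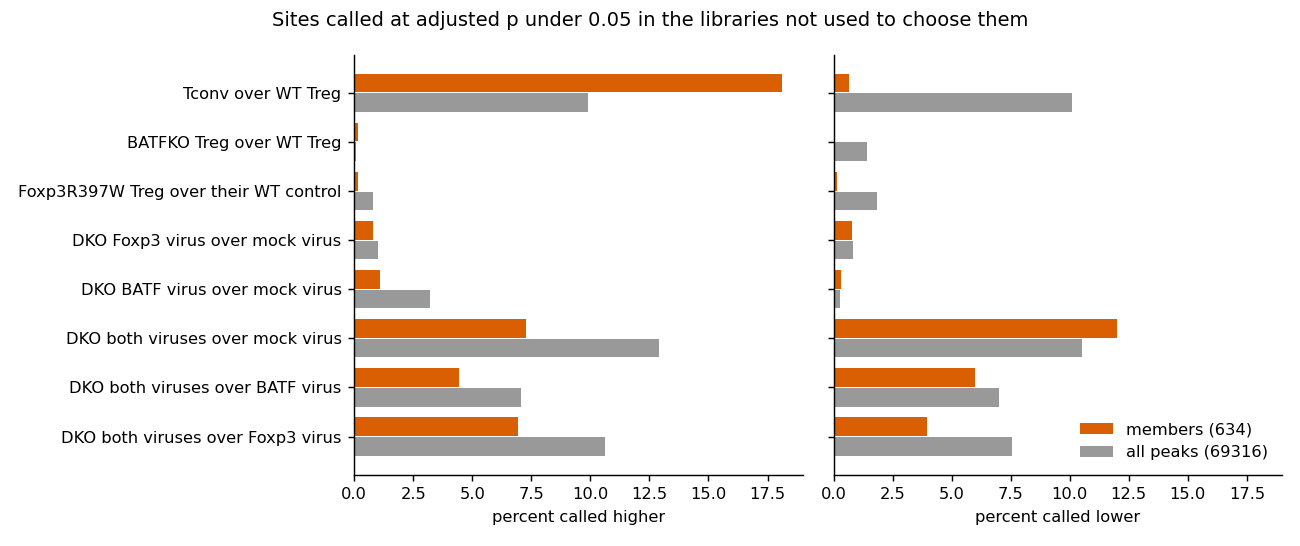
Percent of members (orange, 634) and of all peaks (grey, 69316) called higher (left) or lower (right) in the 8 comparisons of libraries that did not choose the sites. In Tconv over WT Treg 18.1% of members were called higher, against 9.92% of all peaks. For both viruses over mock 12.0% of members were called lower, near the 10.5% of all peaks, and 7.26% higher, against 12.9%.

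Foxp3 virus over mock gave 5 higher and 5 lower, against 1.01% and 0.814% of all peaks, and the counts without 1 library ran from 4 (without mock library 2) to 23 (without Foxp3 library 1), with 5 without Foxp3 library 2. The split was 0 higher and 1 lower with quantile scaling and 0 higher and 8 lower with edgeR. The median log2 difference of members was -0.19, against -0.03 for all peaks, and 259 members (40.9%) were above 0, against 46.6%. With quantile scaling the member median was -0.22, and without Foxp3 library 1 it was -0.03. None of the 10 named calls was kept whichever library was left out. Near Disc1 there were 5.38 and 1.53 with Foxp3 and 33.7 and 30.3 with mock (-3.04, SE 0.72, adjusted p = 0.025), and near Sp4 20.4 and 23.0 with Foxp3 and 69.6 and 80.2 with mock (-1.74, SE 0.42, adjusted p = 0.028). BATF virus over mock gave 7 higher and 2 lower, against 3.2% and 0.291% of all peaks, with 15 calls without mock library 1, 3 without mock library 2 and 4 without BATF library 2. The split was 1 higher and 3 lower with quantile scaling and 5 higher and 3 lower with edgeR. Fyb (2.31, adjusted p = 0.0031) and Icos (2.50, adjusted p = 0.0079) were higher and Stim1 (-1.58, adjusted p = 0.0074), the gene of a calcium sensor, was lower. None of the 8 named calls was kept whichever library was left out. Sites gained by both lineages had 1193 higher and 10 lower with BATF.

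The site over the 1810058I24Rik start differed between the viruses. It had 45.6 and 48.4 with both, 90.3 and 71.0 with BATF, 14 and 4.6 with Foxp3, and 26.4 and 29.3 with mock. BATF over mock was 1.49 (SE 0.41, adjusted p = 0.031), Foxp3 over mock -1.65 (SE 0.41, adjusted p = 0.029), and both over Foxp3 2.39 (SE 0.41, adjusted p = 7e-05). Of these, the last was kept whichever library was left out. The BATF call was lost without any 1 of its 4 libraries, and the Foxp3 call was lost without mock library 1, mock library 2 or Foxp3 library 2. Both single-virus calls were also lost with quantile scaling and in the test against a 1.5-fold change. With edgeR and in the fit on the compared groups only, the Foxp3 call was lost as well. Whether the AP-1 letters in the printed sequence of this site have a part in these differences was not tested.

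Both viruses over BATF gave 28 higher and 38 lower, against 7.08% and 7.01% of all peaks, and both over Foxp3 gave 44 and 25, against 10.6% and 7.54%. These comparisons share the both-virus libraries. With quantile scaling the splits were 18 higher and 38 lower, and 22 higher and 23 lower. Without a library the first count was 29 (BATF library 2), 41 (both-virus library 1) and 42 (both-virus library 2), and the second was 38 without Foxp3 library 2 or without both-virus library 2. Near Ikzf2 there were 20.4 and 33.4 with both viruses and 3.23 and 4.6 with Foxp3 (2.48, SE 0.45, adjusted p = 0.00019). Inside Myo9b there were 180 and 206 with both and 59.2 and 62.9 with Foxp3 (1.64, SE 0.31, adjusted p = 0.00023). Inside Mgll, a lipase gene, there were 25.2 and 39.2 with both and 224 and 185 with BATF (-2.66, SE 0.44, adjusted p = 0.00011). The departure from additive effects passed at 2 members higher and 0 lower, against 0.586% and 0.506% of all peaks.

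Over the 9 tested comparisons, 260 members (41%) were called in at least 1 in either direction, against 39.8% of all peaks, and 374 members were called in none. In at least 1 of the 5 DKO comparisons of 2 groups, 177 members (27.9%) were called, against 30.1% of all peaks.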

How the data were processed

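Accessibility was measured in bulk libraries of 2 per group. Each deposited table holds, per the file headers, a normalized score for each peak and library. Its values were a signal equal to reads in the peak divided by 1 factor per library, which the authors applied before they deposited it; how that factor was set is not stated. Whole reads came out at 100% of values within 0.02, so edgeR's quasi-likelihood test could be run as an alternative; in Tconv over WT Treg it called 7232 peaks higher and 6602 lower. The submitters' processing notes name these, with no role: genome mm10, edgeR (3.38.4, 3.36.0), DiffBind (3.4.11, 3.0.15), MACS2 (2.2.7.1) and Bowtie2 (2.4.1).

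Scores were used as log2(score + 1). One limma fit (limma 3.58.1, R 4.3.3, trend and robust) over all 26 libraries in 13 groups, with 13 residual degrees of freedom, tested 8 comparisons of 2 groups and the DKO departure from additive effects, with Benjamini-Hochberg adjustment over 69316 peaks. An exact permutation test of 2 against 2 libraries cannot go below 0.333. The fit was also run on simulated data, with changes placed only at peaks above the median mean score. That run does not show how well changes are found at low sites such as the members. Positions and overlaps used bedtools 2.31.1 and RefSeq; Python 3.11.15 and edgeR 4.0.16 did the rest. The 22-library table served as an alternative. Per the labels' protocols, ATAC-seq and omniATAC-seq libraries differ in cell lysis.

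The members and gene lists were chosen with earlier results of these data known. Named sites were, for each list gene with a member, the one with the highest mean Teff score (up to 6 genes a list); the 10 largest Teff over Tnaive and Teff over eTreg differences; 5 called members a direction and comparison with the smallest p, 1 a gene; the 10 genes with most members; the 3 nearest sites on either side of each threshold; and 1 Foxp3 and 1 Batf peak. Some sites that this rule names are not reported here. Ifngas1, the receptor loci, Slamf7, Hopx and Samd3 were chosen after their values were seen. Alternatives were other pseudocounts, quantile scaling, a filter at a score of 10 in 2 libraries, a test against a 1.5-fold change, fits on the compared groups only, edgeR, the other table, replicate blocks and leaving out each library.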

Additional observations from a re-analysis of the deposited data

Results flagged for a closer look

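Effects of both viruses together that departed from the sum of the single-virus effects were found at 2 member sites by the interaction test in limma. Inside Fbxo40 the scores were 105 and 138 with both viruses, 58.1 and 71.0 with BATF, 50.6 and 73.7 with Foxp3, and 81.2 and 86.0 with mock, and the departure was 1.34 (SE 0.35, adjusted p = 0.0496). Inside Cracd they were 2.91 and 4.61 with both viruses, 0 and 0.96 with BATF, 1.08 and 0 with Foxp3, and 5.27 and 4.89 with mock, and the departure was 3.82 (SE 0.93, adjusted p = 0.042). Neither call was kept whichever library was left out. Both were lost with edgeR, with quantile scaling, in the test against a 1.5-fold change and in the fit on the compared groups only. The 2 sites are 0.315% of members, against 0.586% of all peaks called higher, and the Cracd scores stand for a few reads.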

How the results depend on the processing

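The number of members was 606 to 732 with 1 of the 8 choosing libraries left out, 644 and 620 with pseudocounts of 0.5 and 5, 706 with quantile scaling, and 8 in the other deposited table under its own names, against 748 there when libraries were matched by their reads. Called members are given below as totals.
A pseudocount of 5 gave 203 in Tconv over WT Treg, 2 in BATFKO Treg over WT Treg and 16 in Foxp3 over mock virus; a pseudocount of 0.5 gave 1 for the departure from additive effects. Quantile scaling gave 265 in Tconv over WT Treg, 17 in BATFKO Treg over WT Treg, 4 in Foxp3R397W Treg over control, 1 in Foxp3 over mock, 4 in BATF over mock, 45 in both over Foxp3 and 0 for the departure. The test against a 1.5-fold change gave 32, 0, 0, 0, 1, 40, 11, 15 and 0, in the order Tconv, BATFKO, Foxp3R397W, Foxp3 over mock, BATF over mock, both over mock, both over BATF, both over Foxp3 and the departure. Fits on the compared groups only gave 3 for BATFKO, 10 for Foxp3R397W, 6 for Foxp3 over mock, 5 for BATF over mock, 43 for both over Foxp3 and 0 for the departure. edgeR on whole reads gave 4 for BATFKO, 12 for Foxp3R397W and 0 for the departure; the other deposited table gave 0 for BATFKO. The causes were not tested.
Leaving out a library gave 53 to 75 for Tconv, 0 to 3 for BATFKO, 0 to 0 for Foxp3R397W, 4 to 23 for Foxp3 over mock, 3 to 15 for BATF over mock, 58 to 94 for both over mock, 29 to 45 for both over BATF, 38 to 69 for both over Foxp3 and 0 to 6 for the departure.
Same-numbered DKO libraries deviated together with correlations of 0.15 to 0.21 in 6 group pairs, but no label says that a number marks a shared animal or batch. With the replicate block, calls were 122 for Tconv, 121 for both over mock, 69 for both over BATF and 69 for both over Foxp3; with the replicate block in DKO groups only they were 40 for Foxp3 over mock (6 higher, 34 lower), 16 for BATF over mock (9 higher, 7 lower) and 17 for the departure (14 higher, 3 lower). For Foxp3R397W Treg the labels number the control otherwise, but same-numbered columns deviated together (0.33). With the replicate block by column numbers, added after seeing the data, calls were 2 in all libraries and 57 with the pair only (31 higher, 26 lower).
Of 1818 recomputed calls of named sites, 1387 kept their call, 431 lost it and 0 changed sign. With 2 libraries a group and a median SE of 0.587 at members, against 0.338 at all peaks, small differences at these low sites were not detectable.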

Other observations

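Some of the highest member sites lay at genes outside the lists and the naming rule, and were chosen after their values were seen. Slamf7 encodes a surface receptor of natural killer and cytotoxic cells. A site 2942 bp from it had 169 and 216 in Teff, 2.55 and 13 in Tnaive, 9.97 and 7.02 in eTreg, and 5.33 and 7.71 in cTreg. Tconv had 40.8 and 25 there and WT Treg 9.78 and 8.17 (log2 1.73, SE 0.48, limma adjusted p = 0.0092). A second site, 4185 bp from Slamf7, had 57.1 and 36.4 in Tconv and 12.2 and 9.19 in WT Treg (2.01, SE 0.39, adjusted p = 0.0003).

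Inside Hopx, the gene of a homeodomain protein of effector and memory T cells, a site had 355 and 368 in Teff, 10.2 and 19.4 in Tnaive, 80.9 and 69.1 in eTreg, and 51.5 and 63.9 in cTreg, so both Treg states lay above Tnaive. Near Samd3 a site had 186 and 239 in Teff, 8.94 and 14.3 in Tnaive, 6.65 and 12.9 in eTreg, and 13.3 and 15.4 in cTreg. Tconv exceeded WT Treg by 0.74 (SE 0.28, adjusted p = 0.057) at Hopx and by 1.60 (SE 0.58, adjusted p = 0.0507) at Samd3, neither past the threshold.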
